A study of Mus musculus with 6 samples.

Results

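The 39 genes described here encode the enzymes and transporters of glycolysis (23 genes, from glucose uptake to lactate export), of the pentose phosphate pathway (4 genes) and of pyruvate dehydrogenase with the tricarboxylic acid (TCA) cycle (12 genes). They were chosen by symbol from a list of these pathways, with earlier results of these data known. They were found among the 54134 genes of the deposited count table. All 39 passed the filter on low counts, as did 13581 genes in all. The study sequenced total RNA of GFP-positive regulatory T cells (Treg cells, a CD4 T cell lineage that restrains other immune cells) from mouse spleen. The knockout (KO, 3 libraries) came from mice with a conventional, meaning whole-body, deletion of BAF60b, a subunit of the SWI/SNF chromatin remodelling complex encoded by Smarcd2, and the wild type (WT, 3 libraries) from mice with intact BAF60b. Cells of both genotypes carried the GFP signal. The labels give neither the age and sex of the mice, nor the allele behind the GFP signal, nor whether the libraries of a genotype came from separate mice. The p-values therefore measure the spread between these libraries. Because the deletion was not restricted to Treg cells, an effect within them and an effect of their surroundings cannot be told apart.

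Glycolysis splits glucose into pyruvate in the cytosol, and cells that export the pyruvate as lactate regenerate the NAD that the pathway consumes. The pentose phosphate pathway branches off after the first phosphorylation and yields NADPH and ribose, while pyruvate dehydrogenase feeds the TCA cycle in mitochondria. In mouse Treg cells Foxp3, their defining transcription factor, is known to favour mitochondrial respiration over glycolysis, and glycolysis is known to be raised in proliferating and migrating Treg cells.

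Libraries held between 19348985 and 22484047 reads in KO and between 18151405 and 21020182 reads in WT. Values are CPM, the reads of a gene scaled to a common library size after TMM, and log2 fold changes are KO minus WT. A gene was called at a Benjamini-Hochberg adjusted p under 0.05 in edgeR's quasi-likelihood test over all 13581 genes. Smarcd2 had 58.2, 57.6 and 59.1 CPM in KO 1, 2 and 3, against 204.6, 199.5 and 192.1 CPM in WT 1, 2 and 3 (log2 fold change -1.77, SE 0.047, adjusted p 6.95e-08), so the targeted transcript was lower in every KO library and still detected. Foxp3 stood between 589.8 and 603.7 CPM in KO and between 550.0 and 564.5 CPM in WT, and the 8 Treg markers together between 4648 and 4988 CPM in KO and between 4522 and 4678 CPM in WT. Of these 8, Ikzf2 was called higher (820.0 to 933.1 CPM in KO, 633.8 to 707.0 CPM in WT) and Nrp1 lower (213.2 to 238.4 CPM in KO, 319.1 to 343.5 CPM in WT). Among B cell markers, Cd79b had 6.68 to 8.25 CPM in KO and 11.5 to 13.8 CPM in WT, Cd79a 1.59 to 2.46 CPM in KO and 2.15 to 3.07 CPM in WT, and Ms4a1 at most 0.453 CPM in KO and 0.303 CPM in WT. The 4 plasma cell markers summed to 5.58 to 20.7 CPM in KO and 4.66 to 7.17 CPM in WT, and the 8 neutrophil markers to at most 0.905 CPM in KO and 0.191 CPM in WT. The monocyte and macrophage list (7 genes) spread from 84.8 to 173 CPM in KO and from 132 to 157 CPM in WT. Most of that sum was Ccr2, which was called lower (71.8 to 97.8 CPM in KO, 106.7 to 136.1 CPM in WT), while Csf1r spread from 7.35 to 52.1 CPM in KO and from 14.3 to 17.9 CPM in WT and was not called. The lists for CD8 T cells, dendritic cells, NK cells, red cells and platelets each summed to at most 13.5 CPM in a KO library and 15.1 CPM in a WT library. Within that limit, red cell markers summed to 0.664 to 12.5 CPM in KO and 0.956 to 3.24 CPM in WT. Dendritic cell markers summed to 2.83 to 5.30 CPM in KO and 2.01 to 2.42 CPM in WT. KO 2 was the highest library for the red cell marker Hbb-bs (4.84 CPM) and for Csf1r (52.1 CPM). Besides Ccr2, the calls among markers of other cells were 1 B cell marker (lower), 1 plasma cell marker (higher) and 1 NK cell marker (lower). In each of these 3 lists 2 genes were tested, and 6.46% of all genes were called. The NK cell list as a whole was not lower, at 6.32 to 7.44 CPM in KO and 5.15 to 6.93 CPM in WT. The part of these other cells in the results below was not tested. Y-linked transcripts were at 0 in KO 2 and WT 1, and Xist at 0 in KO 3, while the other libraries held both kinds, so the libraries differ in their make-up by sex within each genotype and were not made from the same RNA. In bulk libraries, fewer cells of a type and less RNA per cell cannot be told apart.

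Across the 3 pathways most log2 fold changes were negative and small, and enolase was the only step with calls in both directions. Of the 39 members, 8 were lower in KO (Slc2a1, Slc2a3, Adpgk, Pfkfb3, Eno1, Ldhb, Slc16a1 and Idh2), 2 were higher (Eno2 and Eno3) and 29 were not called. Among all genes 877 were called, which is 6.46% of those tested, with 3.2% lower and 3.25% higher. Log2 fold changes were negative for 32 members and positive for 7, with a median of -0.14, beside a median of 0.0041 over all genes tested. For 20 members every KO library was below every WT library, against 13.0% of all genes tested. The reverse order held for 3 members (Eno2, Eno3 and Idh3a), against 12.6% of all genes, and 16 members overlapped. Glycolysis held 9 of the 10 calls with 23 members, the TCA group 1 with 12 members and the pentose phosphate pathway 0 with 4 members. The TCA and pentose phosphate counts are near the 6.46% called among all genes. Whether the pathways differ from each other was not tested.

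**Figure D1:**
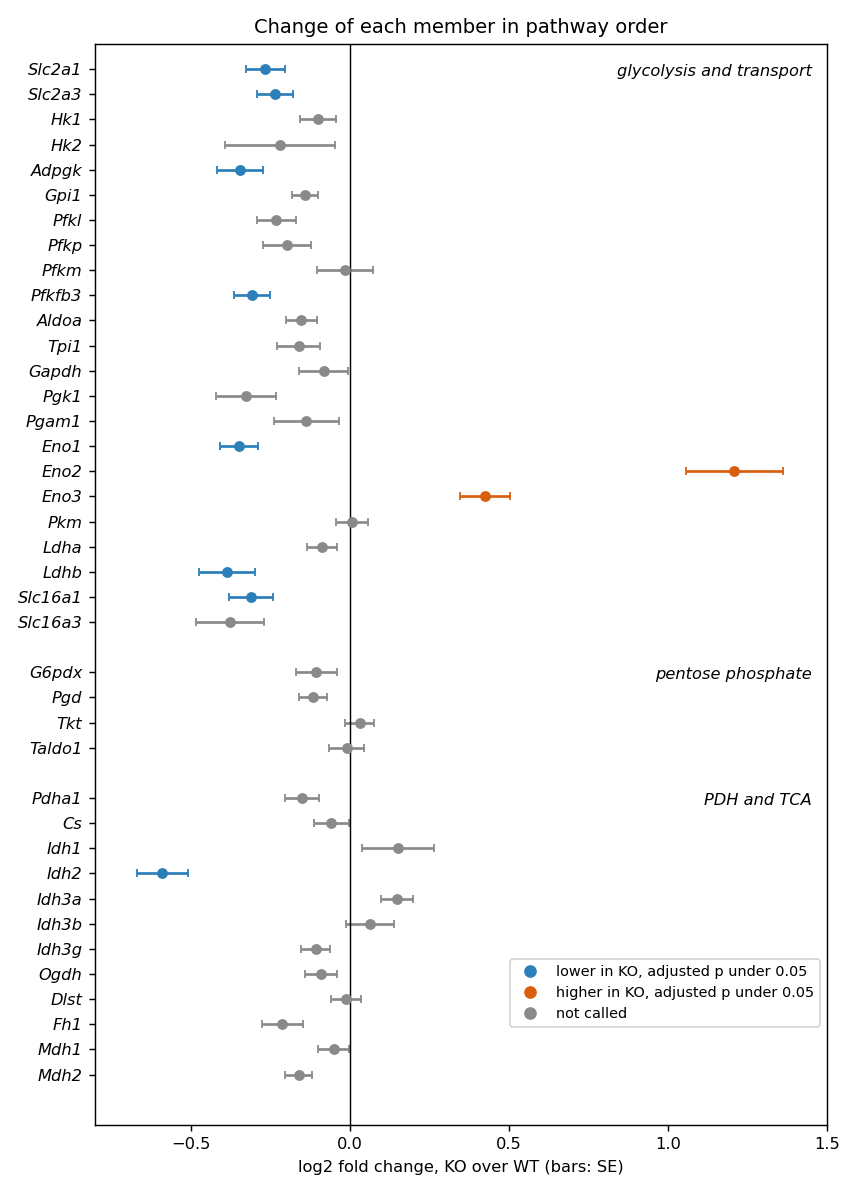
Log2 fold change of each of the 39 members, KO over WT, on the horizontal axis, in pathway order from top to bottom (points: edgeR estimate, bars: SE, 3 libraries per genotype). The points of 32 members sit left of 0, with Idh2 lowest at -0.59 and Eno2 and Eno3 to the right at 1.21 and 0.42.

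The count of lower members depended on the WT libraries. It was 4 without WT 1, 2 without WT 2 and 3 without WT 3, while the count over all genes was 352, 344 and 541 in those fits, and it was 5 without KO 3. Eno1, Eno2 and Idh2 were called whichever single library was left out. Without the 2 libraries that lack Y-linked transcripts (KO 2 and WT 1) 182 genes were called in all, and among the members Slc2a3, Pfkfb3, Eno1 and Idh2 were still lower and 0 were higher by edgeR (Eno2 had an adjusted p of 0.050).

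**Figure D2:**
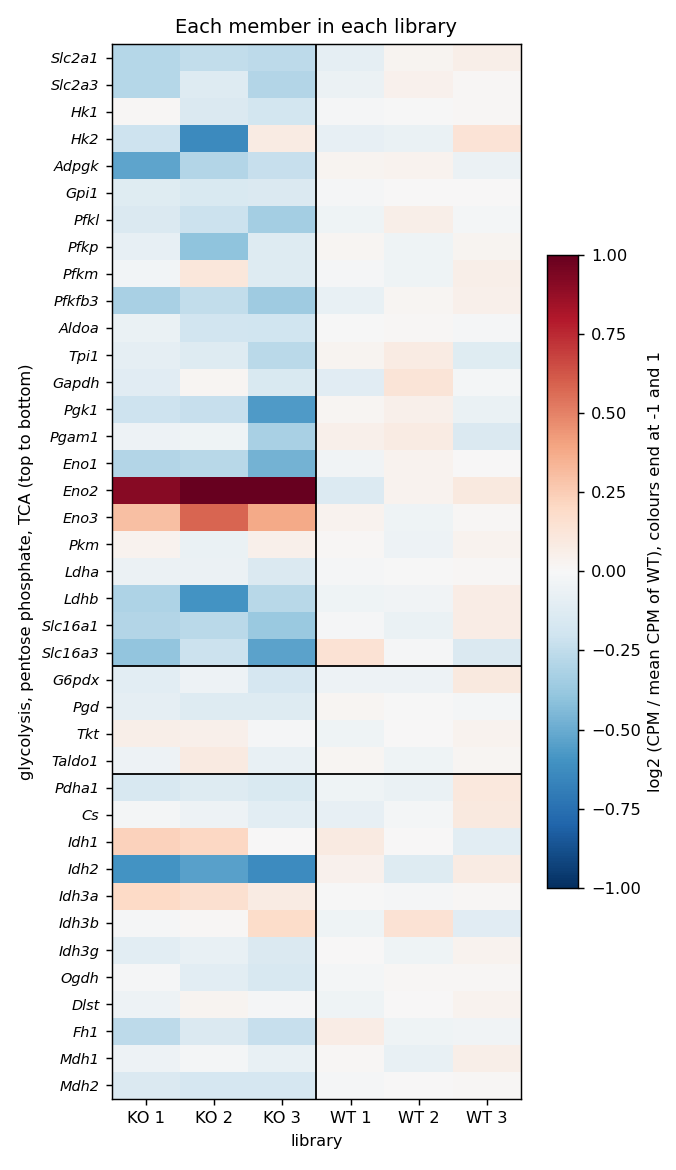
Level of each member in each library as log2 of its CPM over the mean CPM of the 3 WT libraries (rows in pathway order, black lines between pathways, KO columns left of WT columns, colours clipped at -1 and 1). Eno2 and Eno3 are red in all 3 KO columns, and Idh2, Eno1, Pfkfb3 and Slc16a1 are blue in all 3.

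Glucose enters T cells through facilitative transporters, and both measured here were lower in KO. Slc2a1 (GLUT1, chr4:119108711-119137983, mm10) had 37.0, 38.1 and 37.6 CPM in KO 1, 2 and 3, against 42.5, 46.1 and 46.9 CPM in WT 1, 2 and 3 (log2 fold change -0.27, SE 0.062, adjusted p 0.0311). Slc2a3 (GLUT3, the high-affinity transporter) had 155.4, 172.9 and 154.6 CPM in KO, against 182.2, 195.3 and 191.1 CPM in WT (log2 fold change -0.24, SE 0.057, adjusted p 0.0361). The genotypes did not overlap for either gene, and KO 2 was the highest KO library for both. Their summed level was 198.5 ± 10.9 CPM in KO and 234.7 ± 8.83 CPM in WT (SD, n = 3 each), a difference of -15.4%. Both calls were fragile: the adjusted p reached 0.129 for Slc2a1 and 0.147 for Slc2a3 when WT 2 was left out, and each call was lost in 5 of the 6 fits that leave out a single library.

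Phosphorylation traps glucose in the cell. Adpgk, an endoplasmic reticulum kinase that uses ADP in place of ATP, had 78.2, 92.1 and 96.4 CPM in KO, against 114.9, 115.7 and 108.3 CPM in WT (log2 fold change -0.34, SE 0.073, adjusted p 0.0217). KO 1 was the lowest library by a wide margin, and the call ended without WT 1 or without WT 2 (adjusted p 0.101 in both fits). The conventional hexokinases were not called and overlapped between genotypes. Hk1 averaged 228.6 ± 16.6 CPM in KO and 245.1 ± 2.03 CPM in WT (adjusted p 0.363), and Hk2, the inducible form, averaged 7.20 ± 1.75 CPM in KO and 8.41 ± 0.718 CPM in WT (adjusted p 0.538). Exons of Adpgk overlap those of Bbs4, on the opposite strand, over 194 bases, and without a stated strand setting the reads of that stretch cannot be told apart.

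Of the genes that act between glucose-6-phosphate and triose phosphate, edgeR called Pfkfb3 alone. Pfkfb3 makes the allosteric activator of phosphofructokinase and so sets the pace of glycolysis. It had 57.7, 61.0 and 56.4 CPM in KO, against 68.5, 73.1 and 74.9 CPM in WT (log2 fold change -0.31, SE 0.057, adjusted p 0.0114), with no overlap. The call ended without WT 2 (adjusted p 0.0609) or without WT 3 (0.0505).

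The isomerase Gpi1 had 330.3, 323.7 and 326.1 CPM in KO, against 357.9, 361.4 and 361.1 CPM in WT (log2 fold change -0.14, adjusted p 0.0849). Libraries of each genotype lay close together and apart from the other genotype, yet Gpi1 was not called. Pfkl, the liver-type phosphofructokinase subunit, had 76.1, 72.2 and 66.4 CPM in KO, against 81.5, 87.3 and 83.0 CPM in WT (adjusted p 0.0515). Pfkp, the platelet-type subunit, had 156.8, 125.5 and 151.3 CPM in KO, against 167.8, 160.5 and 168.8 CPM in WT (adjusted p 0.181). Neither overlapped and neither was called by edgeR, with KO 2 the lowest library for Pfkp. DESeq2 called Pfkl (adjusted p 0.0418), and without a filter on low counts edgeR called Pfkl (0.0072) and Pfkp (0.0195). The muscle-type subunit Pfkm differed least of the 3 isozymes, with 17.9 ± 1.53 CPM in KO and 18.1 ± 0.654 CPM in WT (log2 fold change -0.014, adjusted p 0.953). The aldolase gene Aldoa had 239.7, 220.2 and 219.5 CPM in KO, against 251.4, 253.9 and 249.6 CPM in WT (adjusted p 0.111), again without overlap. Tpi1, which interconverts the triose phosphates, averaged 89.2 ± 5.74 CPM in KO and 99.7 ± 7.10 CPM in WT and overlapped (adjusted p 0.207). From uptake to triose phosphate all 12 genes had a negative log2 fold change, with a median of -0.21, and 4 were called.

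The later steps of glycolysis, which repay the ATP spent, were less uniform. Gapdh averaged 42.1 ± 2.62 CPM in KO and 44.5 ± 3.77 CPM in WT (adjusted p 0.615), and Pgam1, the phosphoglycerate mutase, 17.99 ± 1.93 CPM in KO and 19.8 ± 1.61 CPM in WT (adjusted p 0.508). Both overlapped between genotypes. The phosphoglycerate kinase gene Pgk1, on the X chromosome, had 33.9, 33.4 and 26.4 CPM in KO, against 39.6, 40.5 and 37.3 CPM in WT (log2 fold change -0.33, adjusted p 0.0785). KO 3 was the lowest library, no KO library reached a WT library, and the gene was not called. Pkm, the pyruvate kinase gene, did not separate the genotypes, with 631.7 ± 28.0 CPM in KO and 628.9 ± 18.8 CPM in WT (log2 fold change 0.0066, SE 0.051, adjusted p 0.962). An annotated transcript on the same strand, Gm49759, overlaps 15.3% of its exons.

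Enolase converts phosphoglycerate to phosphoenolpyruvate, and its genes moved in opposite directions. Eno1 encodes the alpha subunit that most cells use, Eno2 the gamma subunit known from neurons, and Eno3 the beta subunit known from muscle. In human T cells alpha-enolase has been tied to the splicing of FOXP3. The promoters of the 3 genes are shown because the paralogs differ in direction. They run from 250 bases before to 50 bases after the RefSeq start (GRCm38.p6). Capitals mark GCGTG or its reverse complement, 1 of the 2 forms of the core hypoxia response element. The form ACGTG, also searched on both strands, and the E-box CACGTG, which contains ACGTG on both strands, are in none of the 3. The Eno1 window is chr4:150236458-150236757 (plus strand), that of Eno2 chr6:124769624-124769923 (minus strand) and that of Eno3 chr11:70656926-70657225 (plus strand).
Eno1: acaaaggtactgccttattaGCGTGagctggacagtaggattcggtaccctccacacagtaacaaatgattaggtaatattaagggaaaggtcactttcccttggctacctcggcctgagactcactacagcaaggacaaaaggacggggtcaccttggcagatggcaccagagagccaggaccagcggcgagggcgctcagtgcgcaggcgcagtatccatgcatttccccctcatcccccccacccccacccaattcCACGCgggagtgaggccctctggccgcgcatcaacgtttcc
Eno2: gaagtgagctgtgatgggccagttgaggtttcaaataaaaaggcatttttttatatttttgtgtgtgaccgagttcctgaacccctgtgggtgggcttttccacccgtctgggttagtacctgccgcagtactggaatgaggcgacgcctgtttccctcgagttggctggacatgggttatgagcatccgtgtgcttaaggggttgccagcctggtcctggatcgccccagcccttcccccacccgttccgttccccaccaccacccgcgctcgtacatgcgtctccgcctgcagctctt
Eno3: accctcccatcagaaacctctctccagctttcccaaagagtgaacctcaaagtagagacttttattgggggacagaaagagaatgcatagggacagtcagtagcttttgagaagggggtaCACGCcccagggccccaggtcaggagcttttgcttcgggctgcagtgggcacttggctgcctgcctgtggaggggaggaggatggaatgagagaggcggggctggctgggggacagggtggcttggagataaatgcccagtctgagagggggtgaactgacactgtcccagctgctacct
GCGTG stands in 2 places in the Eno1 window, 1 in that of Eno3 and 0 in that of Eno2. Of the 32851 promoters that RefSeq lists, 32.4% hold GCGTG, 19.6% ACGTG and 7.15% CACGTG. Of the 37 members with a promoter in the table, 22 (59.5%) held GCGTG, 15 (40.5%) ACGTG and 3 (8.11%) CACGTG. Members count 1 promoter each and the 32851 are all listed promoters, so the 2 sets are unlike and were not tested against each other. GCGTG was in 6 of 7 lower, 1 of 2 higher and 15 of 28 uncalled members. ACGTG was in 4, 0 and 11 of them. These matches describe letters in the windows, and binding was not measured.

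Eno1 fell to 250.4, 253.2 and 221.2 CPM in KO 1, 2 and 3, against 299.6, 314.8 and 307.7 CPM in WT 1, 2 and 3 (log2 fold change -0.35, SE 0.059, adjusted p 0.00835). Eno2 rose to 9.30, 11.8 and 13.3 CPM in KO, against 4.50, 5.07 and 5.30 CPM in WT (log2 fold change 1.21, SE 0.15, adjusted p 0.00196). Eno3 rose to 42.1, 51.2 and 44.4 CPM in KO, against 35.0, 33.2 and 34.4 CPM in WT (log2 fold change 0.42, SE 0.079, adjusted p 0.0117). In each case the genotypes did not overlap, with KO 3 lowest for Eno1 and highest for Eno2, and KO 2 highest for Eno3. Eno2 rested on 185 to 300 reads in KO and 82 to 106 reads in WT, so it was a small part of enolase RNA even where it was higher. The Eno3 call ended without WT 1 (adjusted p 0.0527) or without WT 2 (0.0711).

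**Figure D3:**
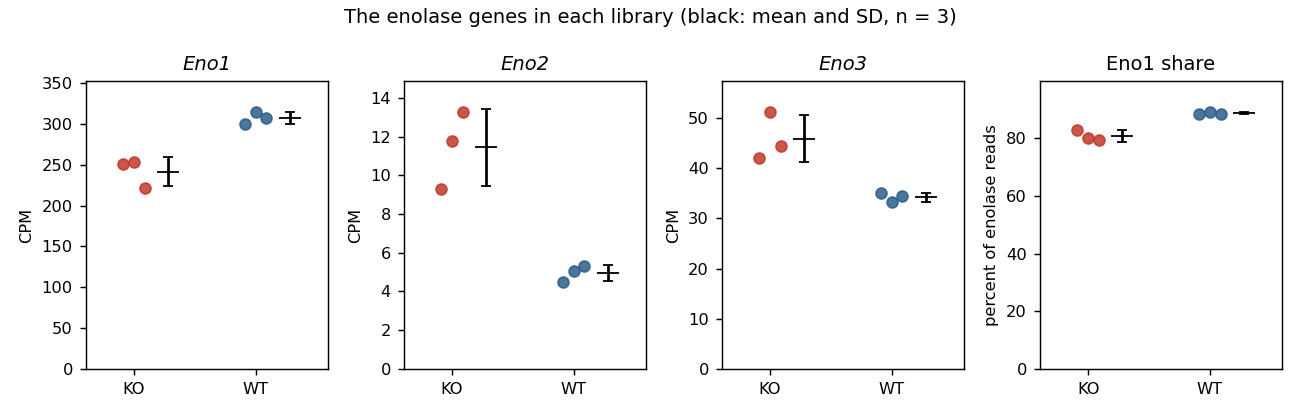
CPM of Eno1, Eno2 and Eno3 in each library, and the percent of their summed reads that belong to Eno1 (red: KO, blue: WT, black: mean and SD of 3 libraries, axes from 0). Eno1 and its share are lower in all KO libraries, and Eno2 and Eno3 are higher in all KO libraries.

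Because Eno1 dominates, the sum of the 3 genes was still lower, at 299.0 ± 18.8 CPM in KO and 346.5 ± 7.07 CPM in WT (-13.7%). Eno1 made up 83.0, 80.1 and 79.3% of enolase reads in KO 1, 2 and 3, against 88.4, 89.2 and 88.6% in WT 1, 2 and 3. The difference was -7.91 percentage points (exact two-sided permutation test, p = 0.1, the smallest that 3 libraries against 3 allow, and all 9 shares compared in this way gave it). Eno3 made up 15.4 ± 1.23% in KO and 9.88 ± 0.457% in WT, and Eno2 3.85 ± 0.847% in KO and 1.43 ± 0.0992% in WT (SD, n = 3 each). The union of all annotated exons is shorter for Eno3 (1739 bases) than for Eno1 (5379) and Eno2 (4705). Divided by this length, the Eno1 share was 60.9 ± 2.69% in KO and 73.4 ± 0.918% in WT. That of Eno3 was 35.8 ± 2.18% in KO and 25.3 ± 0.972% in WT. The longest protein-coding transcripts differ less, with 1564 bases for Eno3, 2027 for Eno1 and 2795 for Eno2. The per-kb shares therefore depend on the length used and are not shares of transcripts. Exons of the 3 genes overlap no other annotated gene. Of the 50-base windows of the Eno1 transcript 72.2% also occur in transcripts of 9 other annotated genes, 8 of them pseudogenes, against 0.255% for Eno2 and 0% for Eno3. Reads of Eno1 could therefore be shared with its copies or lost to them, depending on how multiply aligned reads were counted. Its copy Eno1b had 16.3, 14.7 and 11.7 CPM in KO, against 17.8, 19.4 and 19.2 CPM in WT (log2 fold change -0.40, adjusted p 0.0805), and was not called. With Eno1b and Eno4 added to the total, the Eno1 share was 77.1 ± 1.41% in KO and 84.1 ± 0.334% in WT.

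At the end of glycolysis the minor lactate dehydrogenase gene Ldhb and the lactate transporter Slc16a1 fell in KO. Ldhb, the heart-type subunit, had 32.1, 26.3 and 32.9 CPM in KO, against 38.6, 38.7 and 41.9 CPM in WT (log2 fold change -0.39, SE 0.089, adjusted p 0.0308). KO 2 was the lowest library, and the call ended when any single WT library was left out (adjusted p up to 0.116). Ldha, the muscle-type subunit that dominates in T cells, had 581.4, 583.6 and 547.9 CPM in KO, against 603.0, 605.7 and 610.2 CPM in WT (log2 fold change -0.087, adjusted p 0.342), without overlap and without a call. Ldhb accounted for 5.07 ± 0.692% of lactate dehydrogenase reads in KO and 6.15 ± 0.24% in WT.

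Slc16a1 (MCT1), a proton-coupled carrier of lactate and pyruvate, had 28.4, 28.9 and 26.9 CPM in KO, against 34.6, 33.2 and 36.7 CPM in WT (log2 fold change -0.31, SE 0.068, adjusted p 0.0248). Slc16a3 (MCT4), the carrier known for lactate export, had 16.0, 18.1 and 14.6 CPM in KO, against 23.3, 20.9 and 19.0 CPM in WT (log2 fold change -0.38, SE 0.11, adjusted p 0.0701). Neither gene overlapped between genotypes, and Slc16a3 was not called. Their sum was 44.3 ± 2.79 CPM in KO and 55.9 ± 1.91 CPM in WT, a difference of -20.7%. The Slc16a1 call ended in 5 of the 6 fits that leave out a single library, the exception being KO 2 (adjusted p up to 0.0939).

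**Figure D4:**
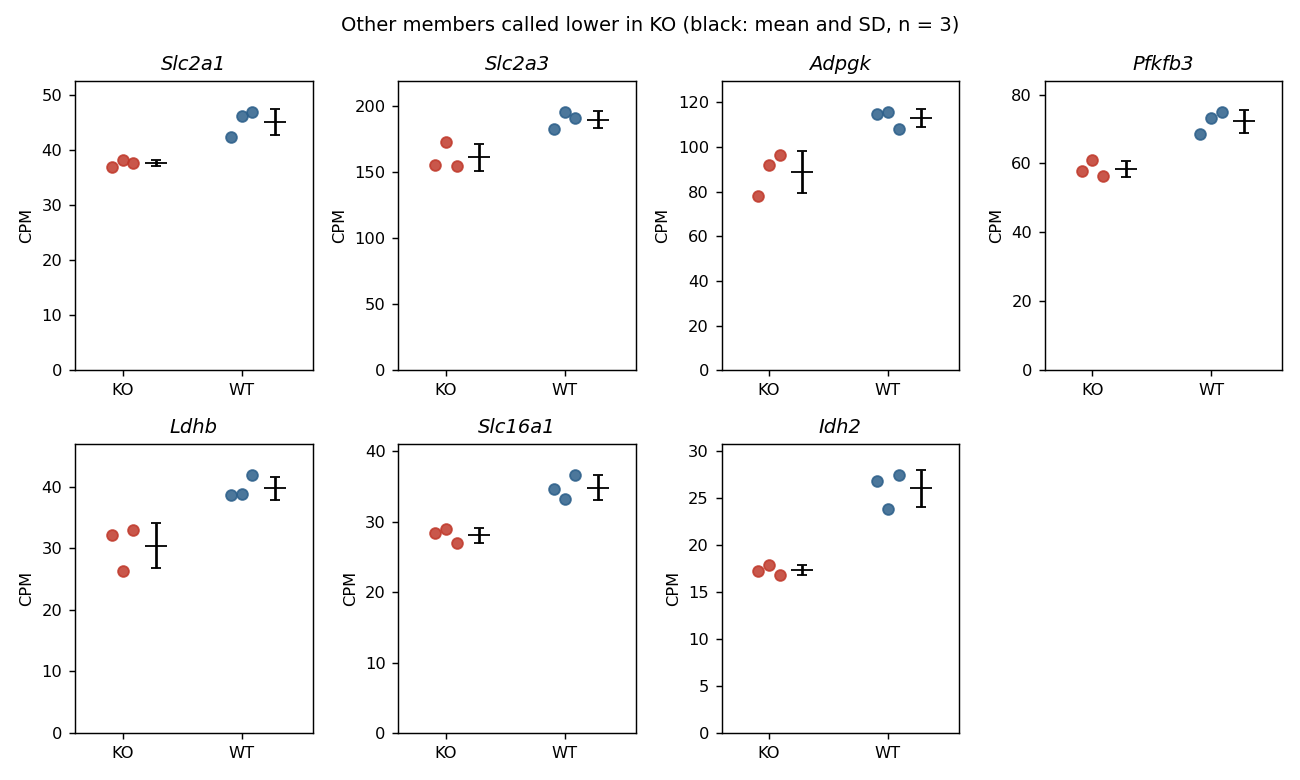
CPM of the other 7 members called lower in KO in each library (red: KO, blue: WT, black: mean and SD of 3 libraries, axes from 0). In every panel the 3 KO points lie below the 3 WT points, and Idh2 shows the widest gap relative to its level.

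No pentose phosphate member was called by edgeR, by DESeq2 or by limma-voom, beside 6.46% of all genes by edgeR. Against 2774 of all 13581 genes tested, 1 of the 4 had an unadjusted p under 0.05. That gene was Pgd, whose product makes NADPH and ribulose phosphate. It had 92.4, 89.7 and 89.5 CPM in KO, against 99.5, 98.1 and 96.9 CPM in WT (log2 fold change -0.12, adjusted p 0.166), without overlap. G6pdx, the X-linked gene of the rate-limiting first enzyme, averaged 44.3 ± 1.80 CPM in KO and 47.6 ± 2.81 CPM in WT (log2 fold change -0.11, SE 0.064, adjusted p 0.41). The non-oxidative enzymes, which shuttle carbon back to glycolysis, showed the smallest differences: Tkt averaged 213.2 ± 5.47 CPM in KO and 208.7 ± 5.799 CPM in WT (log2 fold change 0.031, SE 0.046). Taldo1 averaged 155.8 ± 9.92 CPM in KO and 156.8 ± 3.69 CPM in WT (log2 fold change -0.0093, SE 0.055). Exons of G6pdx overlap those of Ikbkg on the opposite strand over 13.6% of their length.

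In the TCA group Idh2 was the only gene called by edgeR. It encodes the mitochondrial isocitrate dehydrogenase that reduces NADP, and it fell to 17.2, 17.9 and 16.8 CPM in KO 1, 2 and 3, against 26.8, 23.8 and 27.5 CPM in WT 1, 2 and 3 (log2 fold change -0.59, SE 0.081, adjusted p 0.00306). The KO libraries lay close together and below every WT library, and the call held in all 6 fits that leave out a single library (adjusted p 0.00584 to 0.0247). Exons of Idh2 overlap no other gene, and 0% of its 50-base windows occur elsewhere in the annotated transcripts. The cytosolic NADP enzyme Idh1 averaged 9.89 ± 0.831 CPM in KO and 8.90 ± 0.609 CPM in WT and overlapped (log2 fold change 0.15, SE 0.11, adjusted p 0.509). Idh2 thus made up 62.2, 63.5 and 65.3% of the reads of both NADP genes in KO, against 73.9, 72.7 and 76.9% in WT (exact two-sided permutation test, p = 0.1).

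The NAD-dependent isocitrate dehydrogenase of the cycle itself did not show a common direction. Idh3a, its catalytic subunit, had 72.1, 69.9 and 66.4 CPM in KO, against 62.6, 62.1 and 63.3 CPM in WT (log2 fold change 0.15, adjusted p 0.135). Idh3g, an X-linked regulatory subunit, had 87.49, 89.02 and 85.02 CPM in KO, against 94.0, 91.4 and 96.4 CPM in WT (log2 fold change -0.11, adjusted p 0.228). For Idh3a the KO libraries were all above the WT libraries and for Idh3g all below, and neither was called. Idh3b averaged 101.0 ± 7.47 CPM in KO and 96.7 ± 8.90 CPM in WT and overlapped (adjusted p 0.703). Together the 3 subunits had 257.7 ± 2.95 CPM in KO and 253.3 ± 6.02 CPM in WT.

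Of the other cycle genes, 3 were below WT in every KO library without being called. Mdh2, the mitochondrial malate dehydrogenase, had 183.8, 180.1 and 180.3 CPM in KO, against 201.0, 203.0 and 204.0 CPM in WT (log2 fold change -0.16, SE 0.042, adjusted p 0.0544), and DESeq2 and limma-voom called it at adjusted p 0.0495 and 0.0498. Fh1, fumarase, had 35.0, 37.9 and 35.7 CPM in KO, against 44.3, 40.7 and 40.8 CPM in WT (log2 fold change -0.21, adjusted p 0.0896). Pdha1, the X-linked catalytic subunit that admits pyruvate to the cycle, had 128.3, 131.0 and 129.2 CPM in KO, against 139.2, 137.5 and 154.2 CPM in WT (log2 fold change -0.15, adjusted p 0.149). Exons of Pdha1 overlap those of Map3k15 on the opposite strand over 16.1% of their length. The remaining genes overlapped between genotypes, and their log2 fold changes lay between -0.092 and -0.011. Citrate synthase (Cs) averaged 227.6 ± 6.74 CPM in KO and 236.8 ± 15.02 CPM in WT, the 2-oxoglutarate dehydrogenase subunit Ogdh 251.1 ± 12.96 CPM in KO and 267.5 ± 3.46 CPM in WT, its partner Dlst 132.4 ± 3.50 CPM in KO and 133.5 ± 3.79 CPM in WT, and the cytosolic Mdh1 177.6 ± 3.44 CPM in KO and 184.0 ± 8.67 CPM in WT. The 4 X-linked members, Pgk1, G6pdx, Pdha1 and Idh3g, all had negative log2 fold changes and 0 were called by edgeR, with 3 at an unadjusted p under 0.05. Over all 13581 genes tested, 6637 log2 fold changes were negative, 2774 unadjusted p were under 0.05 and 6.46% were called. DESeq2 called Pgk1 (adjusted p 0.0425), and limma-voom called 0 of the 4.

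Per kilobase of exon the members spanned a wide range of levels. The length is the union of all annotated exons of a gene, which can far exceed a single transcript. For Adpgk it is 9609 bases, against 2484 in the longest protein-coding transcript, and for Eno3 1739 against 1564. The order of genes therefore depends on this length, while the comparison of genotypes within a gene does not. Ldha stood at 172.5 ± 6.05 CPM per kb in KO and 183.2 ± 1.11 in WT, followed by Pkm (126.3 ± 5.60 in KO, 125.8 ± 3.76 in WT) and Aldoa (77.8 ± 3.93 in KO, 86.5 ± 0.744 in WT). Taldo1 and Mdh1 came next and did not differ beyond their spread, at 71.8 ± 4.57 and 69.2 ± 1.341 CPM per kb in KO and 72.2 ± 1.70 and 71.7 ± 3.38 in WT. Eno1 ranked sixth in WT at 57.1 ± 1.42 CPM per kb, beside Mdh2 at 56.9 ± 0.421. In KO the levels were 44.9 ± 3.30 for Eno1 and 50.9 ± 0.592 for Mdh2. Eno3 stood at 26.4 ± 2.73 CPM per kb in KO and 19.7 ± 0.52 in WT. At the low end of the WT order were Idh1, Hk2 and Eno2, and Eno2 had 2.43 ± 0.427 CPM per kb in KO and 1.05 ± 0.0875 in WT. Gapdh, usually a very abundant transcript, stood at only 10.2 ± 0.634 CPM per kb in KO and 10.8 ± 0.913 in WT. Its exon union is 4133 bases and its longest protein-coding transcript 1420, so the length used lowers this value.

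Sequence shared with other genes limits how the levels of several glycolysis members can be read. For Gapdh 82.5% of 50-base windows occur in transcripts of other genes, 213 of them pseudogenes among 222 genes. The share was 68.0% for Pgk1, 41.5% for Pgam1, 34.4% for Pkm and 27.0% for Ldhb. It was 25.3% for Gpi1, 17.1% for Pfkp and 16.6% for Ldha. It was 0% for Slc2a3, Adpgk, Slc16a1 and Idh2. Whether reads with several matches were dropped, split or assigned to a single gene is not stated by the labels. The parts of shared sequence and of the long exon union in the low Gapdh level were not tested. Pseudogene copies with a gene name held few reads: Ldha-ps2, Pgam1-ps2, Pgk1-rs7 and Tpi-rs11 had between 5 and 26 reads in any library. AC122217.3, which the deposited table describes as an Ldha pseudogene, had 35, 46 and 69 reads in KO, against 26, 30 and 36 reads in WT. Among functional relatives, Aldoc had 135 to 159 reads in KO and 106 to 130 in WT, Pgam2 67 to 107 in KO and 72 to 107 in WT, Gapdhs 19 to 42 in KO and 20 to 28 in WT, and Eno4 1 to 2 in KO and 0 to 4 in WT.

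**Figure D5:**
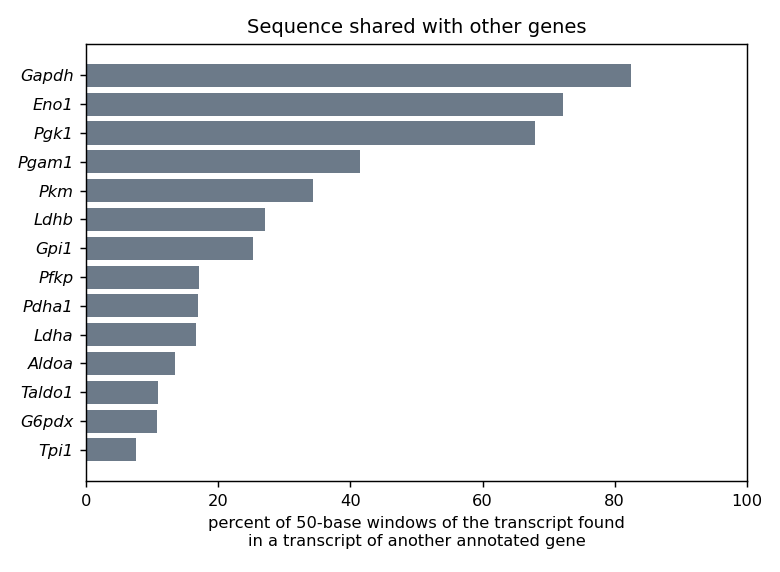
Percent of the 50-base windows of a member's longest protein-coding transcript (GENCODE M21) that also occur in a transcript of another annotated gene, for members at 5% or more. Gapdh and Eno1 lead at 82.5 and 72.2%.

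Of 38 further genes of glycolysis and pyruvate handling, 27 were tested, and edgeR called 2 lower in KO and 1 higher, beside 6.46% of all genes called in either direction. Pfkfb4, a relative of Pfkfb3, had 3.27, 3.82 and 2.83 CPM in KO, against 5.65, 5.88 and 5.40 CPM in WT (log2 fold change -0.77, SE 0.16, adjusted p 0.0204). Minpp1, an inositol polyphosphate phosphatase that also acts on bisphosphoglycerate, had 45.0, 46.8 and 40.9 CPM in KO, against 54.8, 53.1 and 51.0 CPM in WT (log2 fold change -0.26, SE 0.066, adjusted p 0.0437). Galm, which interconverts the anomers of hexoses, had 59.7, 69.1 and 66.2 CPM in KO, against 52.1, 50.8 and 52.9 CPM in WT (log2 fold change 0.32, SE 0.063, adjusted p 0.0153). None of these 3 overlapped between genotypes, and the bifunctional regulators Pfkfb3 and Pfkfb4 were both lower. The calls did not hold in every fit that leaves out a single library: Minpp1 was lost in 5 of the 6 (adjusted p up to 0.174), Pfkfb4 in 4 (up to 0.0926) and Galm in 2 (up to 0.0862). Minpp1 was also lost under upper-quartile scaling (0.0502) and library size alone (0.0648).

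Of 10 further pentose phosphate genes 9 were tested and 0 were called by edgeR or limma-voom, beside 6.46% of all genes by edgeR. Against 2774 of all 13581 genes tested, 1 of the 9 had an unadjusted p under 0.05. That gene, H6pd, the dehydrogenase of the endoplasmic reticulum, had 45.6, 48.3 and 42.1 CPM in KO, against 50.9, 56.0 and 55.4 CPM in WT (log2 fold change -0.26, adjusted p 0.0555). DESeq2 called it at 0.0498. Of 27 further pyruvate dehydrogenase and TCA genes 23 were tested and 0 were called by edgeR, DESeq2 or limma-voom. Of these 23, 3 had an unadjusted p under 0.05, again beside 2774 of all 13581 genes tested. The smallest p belonged to Suclg2, a succinyl-CoA ligase subunit, at 61.1 ± 2.004 CPM in KO and 52.8 ± 4.49 CPM in WT (log2 fold change 0.21, adjusted p 0.111).

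Among 38 regulators of glucose metabolism, 34 were tested and edgeR called 2, a share near the 6.46% of all genes, while DESeq2 called 3, adding Arrdc4. Irf4, a transcription factor of activated T cells that supports glycolytic gene expression, had 201.1, 189.4 and 191.9 CPM in KO, against 163.1, 158.7 and 158.8 CPM in WT (log2 fold change 0.28, SE 0.046, adjusted p 0.00741). Myc, which drives glycolytic genes in activated T cells, had 148.2, 147.0 and 160.8 CPM in KO, against 169.6, 196.3 and 184.6 CPM in WT (log2 fold change -0.27, SE 0.063, adjusted p 0.0309). Irf4 was thus higher and Myc lower in every KO library. The Irf4 call held in all 6 fits that leave out a single library, and the Myc call ended without KO 1, KO 2, WT 2 or WT 3 (adjusted p up to 0.138). Of 21 targets of the hypoxia factor HIF-1 outside glycolysis 17 were tested and edgeR called 2, in opposite directions, beside 6.46% of all genes. Ndrg1 had 28.6, 32.4 and 34.1 CPM in KO, against 19.9, 20.4 and 22.1 CPM in WT (log2 fold change 0.61, SE 0.085, adjusted p 0.00344). Hilpda, a lipid droplet protein, had 9.35, 10.6 and 10.5 CPM in KO, against 14.7, 12.8 and 13.9 CPM in WT (log2 fold change -0.44, SE 0.10, adjusted p 0.0313). The Ndrg1 call held in all 6 fits, and the Hilpda call ended without KO 1 or any single WT library (adjusted p up to 0.136). The remaining 15 tested genes of that list were not called.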

How the data were processed

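The authors deposited raw read counts per gene and library, with gene identifiers and mm10 coordinates, without normalization. Per the submitters' processing notes, mm10 was the build and the tools included HISAT2 2.1.0 and fastp 0.23.2, with DESeq2 1.34.0 and Picard also listed. For the read counter, strand setting, annotation and handling of multiply aligned reads, nothing is given in the sources used here. The table has 54232 rows. Of these, 98 repeat the symbol and all 6 counts of another row (Aldoa included) and were dropped, and 27 symbols turned into dates were restored. The filter on low counts was edgeR's filterByExpr, with a minimum count of 10 and a minimum total of 15. Genotype was tested with edgeR 4.0.16 (R 4.3.3), TMM and the quasi-likelihood F test with Benjamini-Hochberg adjustment, without a block. CPM are counts over TMM-scaled library sizes, and the SE is the size of the log2 fold change over the square root of F. Exon lengths, overlaps and 50-base windows came from GENCODE M21, and promoters from RefSeq (37 of the 39 members matched). Exon length is the union of all annotated exons of a gene. Replicates within a genotype differed by a chi-square per degree of freedom of 5.35 to 14.6, so no 2 libraries agreed within sampling noise.

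The members, lists, tests and naming rule were chosen with earlier results of these data known. Named are all members, with every library's value for those called or not overlapping, Smarcd2, up to 4 called genes of each list or the gene with the smallest p, and annotated copies with reads. Foxp3, Csf1r and the other marker values come from the marker lists, and 1 of these genes is not reported here. Tried besides these were scaling by RLE, by the upper quartile and by library size alone, no filter, a mean of at least 2 CPM, DESeq2 1.42.0, limma-voom (limma 3.58.1), an adjusted p under 0.1, the replicate number as a block, fits without 1 library each, and shares per kb. Counts of 13397 genes were also simulated from these libraries' means and dispersions, KO against WT. The altered genes were drawn only from those above a floor in mean CPM. The share of altered genes that edgeR called was 44% at 1.25-fold, 90% at 1.5-fold, 98% at 2-fold and 100% at 4-fold, and 17 of its 183 calls were false. These shares do not cover genes below that floor.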

Additional observations from a re-analysis of the deposited data

How the results depend on the processing

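Eno1, Eno2, Eno3, Idh2, Adpgk, Pfkfb3 and Ldhb were called under every scaling, filter and tool tried, and the pentose phosphate members had 0 calls under every alternative. Without a filter on low counts 1616 genes were called in all and 15 in the further lists, against 877 and 7, with 12 lower members (adding Pfkl, Pfkp, Pgk1 and Slc16a3). At an adjusted p under 0.1 these were 1354 genes, 14 lower members and 3 TCA members, and DESeq2 and limma-voom each called 2 TCA members. DESeq2 called 11 lower members (adding Pfkl, Pgk1 and Mdh2) and limma-voom 9 (adding Mdh2). Library size alone ended the Slc2a3 call (adjusted p 0.0556). Leaving out a single library gave 344 to 846 genes, 2 to 8 lower members, 1 to 2 higher members, 2 to 9 glycolysis members and 2 to 9 genes of the further lists. The Eno1 share per kb of exon union differed by -12.46 points. Among uncalled members with changes near 0, the sign turned for Pfkm (0.00048), Taldo1 (0.0054) and Dlst (0.0034) under upper-quartile scaling, for Taldo1 (0.0028) and Dlst (0.00067) under library size alone, and for Pkm (-0.0018) without a filter. Leaving out a library moved Pkm between -0.0207 and 0.0396, Pfkm between -0.0837 and 0.0432, Taldo1 between -0.0661 and 0.0218, Dlst between -0.0340 and 0.0074 and Idh3b between -0.00027 and 0.137. The remaining alternatives were chosen after seeing the data. The share of male cells as a covariate turned the sign of Pfkm (0.0261), Pkm (-0.022) and Taldo1 (0.026), called Pfkp lower (-0.265, adjusted p 0.0332) and ended the calls of Minpp1 (0.0575) and Hilpda (0.0549). Without KO 2 and WT 1, the libraries lacking Y-linked transcripts, 182 genes were called in all, with 4 lower members, 0 higher members, 3 glycolysis members and 0 genes of the further lists, and Tkt turned to -0.0046. Keeping the repeated rows changed no call. The cause was not tested in any of these cases. Replicate numbers did not pair the samples: deviations of same-numbered libraries from their genotype means correlated at -0.339, -0.145 and 0.254 over 9759 genes, and with the replicate block 733 genes were called, among them 7 lower and 2 higher members. Against the fit without a block, Pgk1 (adjusted p 0.0450) was added, and Slc2a1 (0.0568), Slc16a1 (0.0588), Minpp1 (0.0506) and Hilpda (0.0613) were not called. With 3 libraries per genotype, small differences such as those of the uncalled members may go undetected, and an uncalled member is not shown to be equal in both genotypes.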
